A study of Homo sapiens with 5 samples.

Results

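The regions described here are the stretches of the K562 genome that held a methylation peak in each of 5 cultures. Methylated DNA immunoprecipitation with sequencing (MeDIP-seq), which uses an antibody against 5-methylcytosine to pull down methylated fragments, had been applied to 3 lines labelled DNMT3A mutated (MT1, MT2 and MT4) and to 2 wild-type cultures (WT bulk and WT transfected). K562 is an established human chronic myeloid leukaemia line grown in suspension. The labels call the mutated and wild-type lines clones but give neither the mutation of each line nor what the transfected culture received, and no group holds repeats of one line. Peaks of the 5 deposited lists were merged wherever they overlapped by 1 bp or more. Regions were chosen by the presence of a peak in every library, which is set by what the caller kept in each list. No deposited score was under 90. Of 11260 merged regions, 835 met this rule (7.42%), and they are called common regions below. The rest held a peak in 4 libraries (1191 regions), 3 (1502), 2 (2114) or 1 (5618).

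DNA methyltransferases place methyl groups on cytosine, mostly where a guanine follows. DNMT3A is one of the enzymes that methylate unmarked sites de novo, whereas DNMT1 copies existing marks onto the new strand at replication, so that established methylation can persist through many divisions. MeDIP recovers densely methylated stretches best, and each peak is a place where fragments piled up above the background estimated by the peak caller. The caller's score is the authors' own value for a peak. Scores of different libraries are set side by side as deposited, although they can move with a library's depth, which is unknown, so that a lower score does not by itself show less methylation. Beside the score, a pair of scales places a peak within its own library: the score percentile is the share of a library's own peaks that score no higher, and the common-region rank is the same percentile taken among the 835 common regions alone.

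The common regions were a small share of the long lists and the larger share of the shortest. They held 837 of 2842 MT1 peaks (29.5%, 95% Wilson interval 27.8 to 31.2%), 835 of 1426 MT2 peaks (58.6%, 56.0 to 61.1%) and 844 of 8399 MT4 peaks (10.0%, 9.42 to 10.7%), against 843 of 6213 WT bulk peaks (13.6%, 12.7 to 14.4%) and 845 of 4470 WT transfected peaks (18.9%, 17.8 to 20.1%). The order follows list length, since each list supplies about as many common peaks. Of the 100 best-scoring peaks of each list, 91 in MT1, 97 in MT2 and 85 in MT4 lay in common regions, against 92 in WT bulk and 88 in WT transfected. High scores were thus part of what selects these regions, and no test was made of it. Intervals cover counting error only, and regions near each other are not independent.

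The median score percentile of common regions was 79.4 in MT1 (quartiles 57.2 to 91.4), 62.1 in MT2 (35.2 to 83.4) and 91.8 in MT4 (80.6 to 96.8), against 89.8 in WT bulk (79.0 to 95.9) and 85.4 in WT transfected (70.0 to 94.2). The lowest member stood at percentile 0.229 in MT1, 0.140 in MT2 and 0.256 in MT4, and at 5.69 in WT bulk and 1.13 in WT transfected. Every list thus had members near its bottom, with WT bulk the least so. The percentile rises with list length by construction, because a long list has many weaker peaks beneath the common ones.

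**Figure D1:**
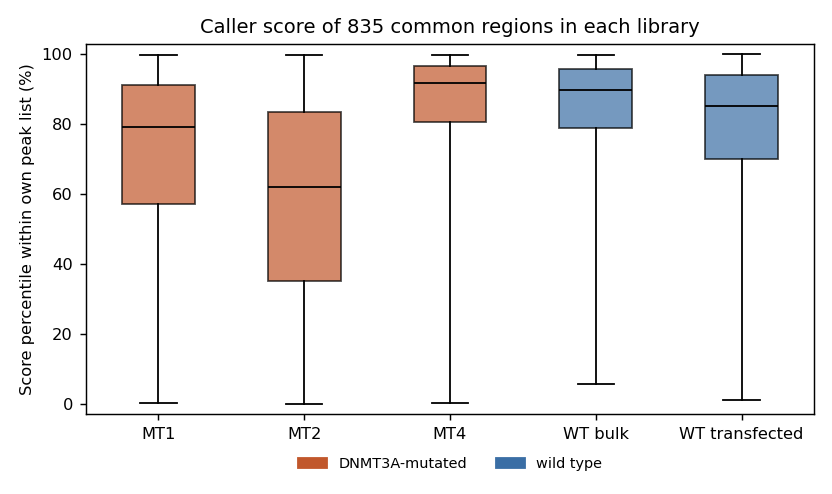
Score percentile, in percent of the library's own peak list, of the 835 common regions in the 3 DNMT3A-mutated libraries (left) and the 2 wild-type libraries (right). Boxes show quartiles and medians and whiskers the full range; the medians run from 62.1 in MT2 to 91.8 in MT4.

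MT2 set the limit of the class. Its score was the lowest of the 5 in 602 common regions (72.1%, 69.0 to 75.03%), that of MT1 in 144 and of MT4 in 23, against 13 for WT bulk and 50 for WT transfected. The highest score came from MT1 in 21 regions, MT2 in 3 and MT4 in 431, and from WT bulk in 283 and WT transfected in 93. Of the 1191 regions that missed membership by a single library, 895 lacked a peak in MT2 (75.1%, 72.6 to 77.5%), 188 in MT1 and 28 in MT4, against 16 in WT bulk and 64 in WT transfected. Without MT2, 1731 regions would have had a peak in every remaining library. Why a peak is missing from a list is not known, since the caller's threshold is not given. The lowest score in the lists was 90. Lower methylation cannot be told apart from lower sensitivity at such a site.

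Members just inside that limit were often weak in only some of the libraries. The region with the lowest single score, on chromosome 11 from 13299194 to 13301073, scored 97.3 in MT1, 90.01 in MT2 and 96.7 in MT4, against 194 in WT bulk and 135 in WT transfected. The next, on chromosome 1 from 214845228 to 214847302, scored 90.1 in MT1 and 249 in MT4. Another, on chromosome 19 from 39259867 to 39261239, was lowest in MT4 at 90.1. The other 2 of the lowest 5 lay on chromosome 19 (15579394 to 15581341) and chromosome 8 (49889470 to 49891315), and MT2 was lowest in both, at 90.1 and 90.2. Just outside the limit were strong regions missing from a single list. The strongest, on chromosome 21 from 9698382 to 9700526, scored 476 in MT1 and 349 in MT4, against 470 in WT bulk and 348 in WT transfected, and had no peak in MT2. The next, on chromosome 10 from 42384284 to 42388675, scored 706 in MT1 and 263 in MT2, against 278 in WT bulk and 576 in WT transfected, and had none in MT4. Of the other 3 of the top 5, those on chromosome 10 (52114676 to 52116216) and chromosome 1 (179711759 to 179714078) were missing from MT2, and that on chromosome 2 (110370789 to 110373758) from MT1.

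The strongest places were shared in part. Among common regions, 38 were in the top 100 of all 5 libraries and 197 in the top 100 of at least 1. The 38 were spread over 14 chromosomes, with 5 each on chromosomes 7, 8 and 22, and 13 of them lay within 3 Mb of a centromere or its heterochromatin. The region on chromosome 7 from 61967995 to 61971328 had a score of 3100 in each library, a value that other strong peaks share exactly. Its MT2 peak was 3334 bp wide, whereas the widest peak in it measured 1790 bp in MT1 and 1223 bp in MT4, against 1444 bp in WT bulk and 1506 bp in WT transfected. The region on chromosome 21 from 9825246 to 9827935 also had that score throughout, and its peaks were of even width, from 2289 to 2690 bp. The region on chromosome 4 from 190942042 to 190944403 had it in all libraries except MT2, where the score was 2510. The 5 strongest were completed by regions on chromosome 6 (58775437 to 58779629) and chromosome 1 (121482318 to 121485637), both beside a centromere. Their lowest scores were 1686, in MT4, and 1490, in MT2. Such stretches are known to hold tandem repeats that are copied many times in the cell and only partly in the hg19 assembly; how far this contributed to their scores was not tested.

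Common regions were wide. The median merged width was 2061 bp (quartiles 1653 to 2619 bp), against 1717 bp for regions in 4 libraries, 1466.5 bp in 3, 1246.5 bp in 2 and 929.5 bp in 1. Merged width grows with the number of lists by construction, so that single peaks are the fairer measure. Peaks in common regions were in the median 1553 bp wide for MT1, 1925 bp for MT2 and 1583.5 bp for MT4, against 1655 bp in WT bulk and 1514 bp in WT transfected. All other peaks of the same lists were narrower, with medians of 1254 bp for MT1, 1584 bp for MT2 and 1046 bp for MT4, against 1206 bp in WT bulk and 1128 bp in WT transfected. In each of the 5 libraries the peaks in common regions were thus the wider ones. A wide peak also overlaps peaks of the other lists more readily, so the rule itself favours width. How much of the difference comes from the rule was not tested.

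**Figure D2:**
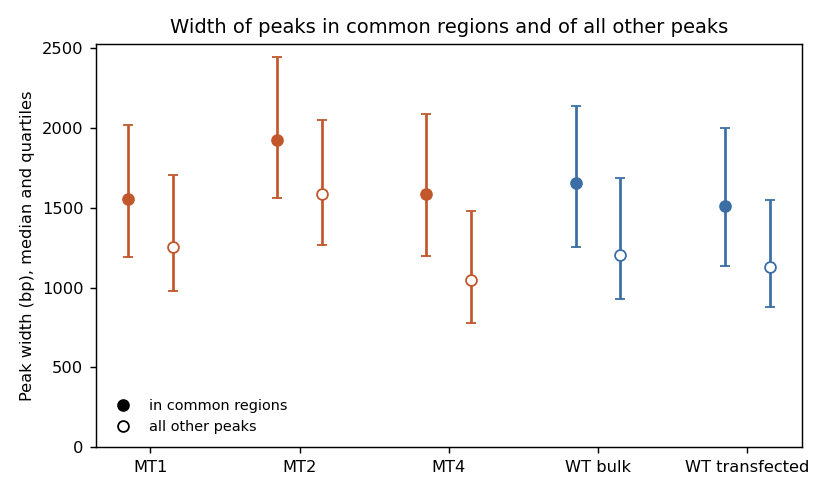
Peak width in bp (median with quartiles as bars) for peaks in common regions (filled) and for all other peaks (open), in the DNMT3A-mutated libraries (MT1, MT2, MT4) and the wild-type libraries. Filled points lie above open ones in every library, and MT2 is the widest in both classes.

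MT2 had the widest peak in 562 of the 835 regions (67.3%, 64.1 to 70.4%), MT1 in 51 and MT4 in 102, against 87 for WT bulk and 33 for WT transfected. MT2 also had the fewest peaks and the lowest scores; whether these go with a difference in the library was not tested. The mean of the library medians came to 1687 ± 207 bp for the mutated lines (SD, n = 3) and 1584.5 ± 99.7 bp for the wild-type cultures (SD, n = 2), which differ by 103 bp (exact permutation test over libraries, two-sided, p = 0.8). Without MT2 the difference was -19.25 bp. The median score over common regions averaged 167 ± 55.6 for the mutated lines (SD, n = 3) and 202 ± 22.01 for the wild-type cultures (SD, n = 2), with p = 0.6 in the same exact test. The gap of -34.3 was -8.49 without MT2, -18.9 without WT bulk and -64.0 without MT4. With 3 libraries against 2 this test cannot give a p below 0.2, and neither difference exceeded the spread between the mutated lines.

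The peaks of the 5 lists overlapped in part. The stretch covered in all 5 libraries was 1265 bp in the median region (quartiles 973.5 to 1732 bp), which is 65.1% of the merged width (54.0 to 74.1%). Added up, the common regions spanned 1.87 Mb, of which 1.19 Mb was covered in every library. In 818 regions each library contributed exactly 1 peak, and in the other 17 some library had a second. In 2 regions no base was covered in all 5 libraries, although every library had a peak in the merged stretch. The widest peak of a region was 1.43 times as wide as the narrowest in the median (quartiles 1.26 to 1.72).

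The widest common regions were on chromosome 1 (142535314 to 142541313, 6000 bp), chromosome 22 (20306341 to 20312264 and 20745083 to 20750879, 5924 and 5797 bp), chromosome 4 (49512071 to 49517824, 5754 bp) and chromosome 21 (10596231 to 10601815, 5585 bp). Those on chromosomes 1, 4 and 21 lie beside centromeric or heterochromatic sequence, and both on chromosome 22 lie in 22q11. The narrowest were spread over 5 chromosomes: chromosome 22 (21792177 to 21792780, 604 bp), chromosome 7 (102206110 to 102206745, 636 bp), chromosome 15 (21071747 to 21072397, 651 bp), chromosome X (49216787 to 49217439, 653 bp) and chromosome 8 (86749295 to 86749988, 694 bp). Narrow did not mean weak. The X region scored 690 in MT1, 466 in MT2 and 940 in MT4, against 722 in WT bulk and 642.5 in WT transfected, and ranked above 98 among common regions in each library. Across the 835 regions score and width were weakly related, with Spearman's rho at 0.282 in MT1, 0.161 in MT2 and 0.123 in MT4, against 0.173 in WT bulk and 0.282 in WT transfected (a description over sites of one library, which share its depth).

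Chromosome 1 held the most common regions (113), followed by chromosomes 6 (91), 7 (79), 5 (73) and 2 (64). As a share of the merged regions on a chromosome, chromosome 5 stood highest, with 73 of 658 (11.1%, 95% Wilson interval 8.92 to 13.7%), against 7.19% (6.71 to 7.69%) on all other chromosomes. Without the protocadherin segment described below, the share on chromosome 5 was 10.2% (8.04 to 12.8%). Chromosomes 8 (9.48%), 4 (9.33%) and 6 (9.15%) came next. The lowest shares were those of chromosome 14 (5 of 172, 2.91%), chromosome 13 (7 of 233, 3.004%) and chromosome 12 (17 of 437, 3.89%), followed by X (7 of 172, 4.07%). Chromosomes 12 to 14 together held 29 common among 842 merged regions (3.44%, 2.41 to 4.90%), against 7.74% (7.24 to 8.27%) elsewhere. Per 10 Mb of sequence the number ran from 0.450 on X and 0.465 on chromosome 14 to 5.04 on chromosome 19 and 5.31 on chromosome 6. No peak on chromosome Y was common to all libraries.

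**Figure D3:**
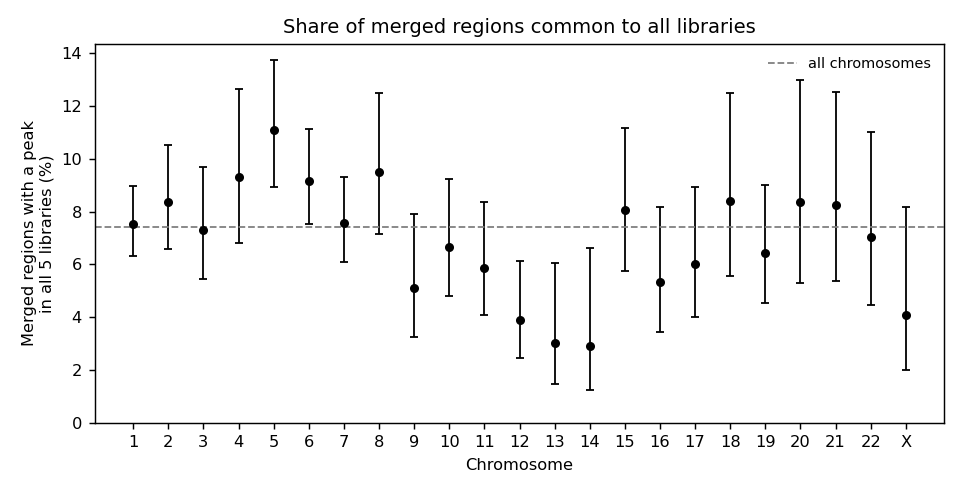
Percentage of the merged regions on each chromosome that held a peak in all 5 libraries, with 95% Wilson intervals; the dashed line marks the share over the whole genome (7.42%). Chromosome 5 has the highest value, 11.1%, and chromosomes 12, 13 and 14 are among the lowest.

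Common regions tended to have common neighbours. The region nearest to a common region was itself common in 112 of 835 cases (13.4%, 95% Wilson interval 11.3 to 15.9%), whereas for merged regions with fewer libraries the nearest was common in 713 of 10425 cases (6.84%, 6.37 to 7.34%). For regions in exactly 4 libraries the share was 7.72% (6.34 to 9.38%), for 3 it was 8.26%, for 2 it was 6.81% and for 1 it was 6.28%. The share was highest for the class of 5, and that of regions in 4 libraries lay within the range of the other classes. Distance to the nearest region of any class differed little, with medians of 33274 bp for common and 41446 bp for all other regions. Another common region lay within 10 kb of 38 members (4.55%), within 100 kb of 177 (21.2%) and within 1 Mb of 544 (65.1%).

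Most clusters were small. Along the chromosomes, 651 common regions had no common region as a direct neighbour among merged regions, 64 runs held 2, 17 held 3 and a single run held 5. Of 2183 windows of 1 Mb with any merged region, 575 held a common one: 406 held 1, 111 held 2, 41 held 3 and 17 held 4 or more. Those 17 windows held 84 of the 835. The fullest lay on chromosome 5 (10 common among 39 merged regions) and on chromosome 22, at 21 to 22 Mb (8 of 31). On chromosome 6, the window at 27 to 28 Mb held 6 of 33 and the next 5 of 36. Chromosome 4 had 5 of 9 beside its centromere, at 49 to 50 Mb. Chromosome 10 had 5 of 12 at 22 to 23 Mb, and chromosome 8 had 5 of 13 at 99 to 100 Mb. Windows with 4 lay on chromosome 6 at 29 to 30 Mb and on chromosome 19 at 37 to 38 Mb, among others.

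The window on chromosome 5 covers the segment of 5q31 known for the clustered protocadherin genes, a tandem array in which neurons choose among many alternative first exons, each with its own promoter, and in which promoter methylation goes with silence. The place of this and the other named segments was taken from general knowledge of hg19 and not from an annotation. After a first region at 140011062 to 140013115, the other 9 formed a row from 140166773 to 140257433, a stretch of 90.7 kb. All 12 merged regions in this row were held by at least 4 libraries, 9 by 5 and 3 by 4. Neighbouring members lay 7.34 kb apart in the median, centre to centre (6.01 to 27.1 kb), and the longest run of the genome, 5 regions from 140208674 to 140238067, lies within it, as does a run of 3 from 140166773 to 140183228.

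The 10 members counted in the protocadherin segment include the first region, which lies apart from the row. Their merged widths ran from 1411 to 2054 bp, the widest being that first region and the widest in the row 1830 bp. Their mean score percentile over libraries ran from 82.4 to 93.9. Within a library they differed more: the common-region rank ran from 22.5 to 93.8 in MT2 and from 45.4 to 90.9 in MT4, against 40.7 to 90.5 in WT transfected. The region at 140221906 to 140223342 scored 231 in MT1, 180 in MT2 and 277 in MT4, against 245 in WT bulk and 202 in WT transfected. The last, at 140255858 to 140257433, scored 202 in MT1, 207 in MT2 and 362 in MT4, against 336 in WT bulk and 170 in WT transfected. In both, the mutated scores overlapped the wild-type scores. On the common-region rank, however, the region at 140221906 to 140223342 was the 1 of 10 with all mutated ranks above both wild-type ranks, at 87.9 in MT1, 89.7 in MT2 and 72.1 in MT4, against 64.2 in WT bulk and 61.1 in WT transfected. All mutated ranks were below both wild-type ranks in 3 of the 10, which start at 140166773, 140181399 and 140214697. The genotypes overlapped in rank in the other members. The median common-region rank in the segment was 80.0 in MT1, 68.1 in MT2 and 71.5 in MT4, against 73.6 in WT bulk and 78.6 in WT transfected, so that each library placed it above the middle of the class.

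The 22q11 segment that includes BCR, one partner of the BCR-ABL1 fusion that K562 carries in extra copies, held 15 common among 175 merged regions (8.57%, 5.26 to 13.7%). This share overlaps that of the genome, but its members scored high, with a median common-region rank that reached 91.6 for MT1, 73.4 for MT2 and 90.8 for MT4, against 89.6 in WT bulk and 89.7 in WT transfected. Of the 38 regions in every top 100, 5 lay in it. The 15 members lay between 17000205 and 22637458, and their distance from BCR was not determined. The region at 21537491 to 21538836 ranked between 97.0 and 97.8 in every library. Not all members there were strong: the region at 21010418 to 21013744 scored 136 in MT1, 94.6 in MT2 and 135 in MT4, against 239 in WT bulk and 96.8 in WT transfected.

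Other known segments were also counted. The 6p22 segment with the histone gene clusters had 15 common among 92 merged regions (16.3%, 10.1 to 25.2%), and 6p21 with the MHC, the genes of antigen presentation, had 5 of 76 (6.58%, 2.84 to 14.5%). The proximal zinc finger segment of 19q13, rich in genes of KRAB repressors, had 8 of 53 (15.1%, 7.85 to 27.1%), against 1 of 13 in 19p12 and 4 of 72 in the distal segment of the long arm. The 4 HOX segments, which hold the genes of body-axis patterning, had 3 of 39 (7.69%, 2.65 to 20.3%): 2 in the HOXD segment, 1 in that of HOXC and none in those of HOXA and HOXB, with 8 merged regions each. The 2 in the HOXD segment lie far apart, starting at 176121449 and 177052520. How near either is to a HOX gene was not determined. Beside centromeres and heterochromatin, within 3 Mb, the number was 75 of 623 (12.04%, 9.71 to 14.8%), against 760 of 10637 (7.14%, 6.67 to 7.65%) elsewhere. Within 3 Mb of the sequenced autosome ends it was 49 of 897 (5.46%, 4.16 to 7.15%).

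The libraries agreed moderately on which common regions scored high and closely on which were wide. Spearman's rho of the score over the 835 regions averaged 0.573 over the 10 pairs of libraries. Among mutated lines it was 0.496 for MT1 with MT2, 0.538 for MT1 with MT4 and 0.495 for MT2 with MT4, and it was 0.653 for the wild-type pair. Between genotypes, WT bulk gave 0.642 with MT1, 0.547 with MT2 and 0.636 with MT4, and WT transfected gave 0.598, 0.539 and 0.581 with the same lines. Each of the other 4 libraries had its lowest value with MT2, and WT bulk was in the 3 highest pairs. Over all regions that a pair shared, from 976 to 4259 regions, rho ran from 0.493 to 0.586, and it was lower in every pair than over the common regions. These are descriptions over sites, which share base composition and the depth of each library, and no p is given.

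**Figure D4:**
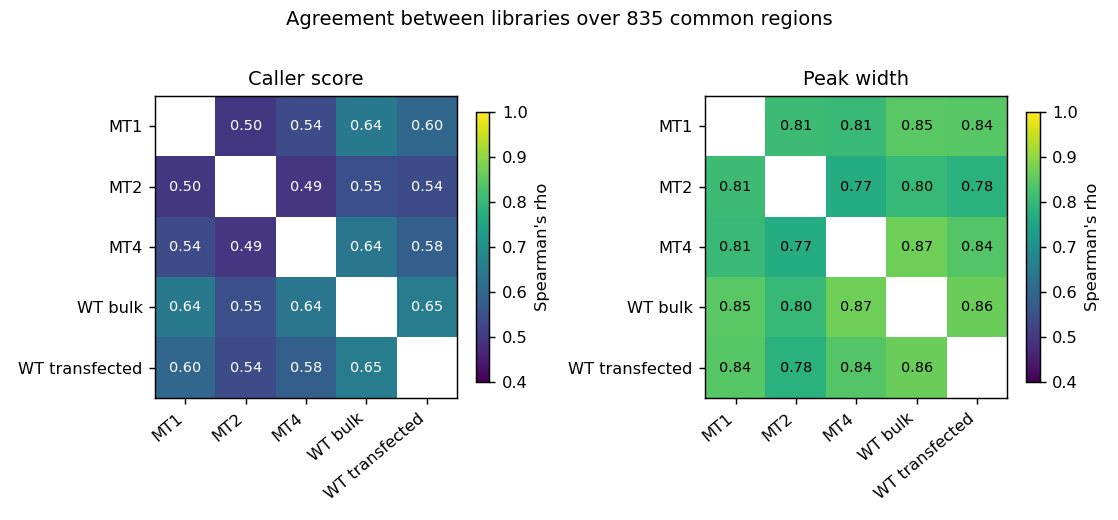
Spearman's rho between each pair of libraries over the 835 common regions, for caller score (left) and peak width (right), with the DNMT3A-mutated libraries first and the wild-type ones after. Score values lie between 0.49 and 0.65 and width values between 0.77 and 0.87.

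Width was the more repeatable trait, with rho from 0.772 (MT2 with MT4) to 0.867 (MT4 with WT bulk). Pearson's r of the log2 score was higher than the rank correlation, with a mean of 0.776. Pairs of libraries had 55 to 71 regions in common among their top 100, and a region's rank differed by a median of 13.1 points between the wild-type cultures and by up to 17.7 points between MT1 and MT2. Pairs within a genotype averaged a rho of 0.545 and pairs between genotypes 0.591, a difference of -0.045 (exact permutation test, two-sided, p = 0.2, the smallest possible in this design). Leaving out one library gave differences from -0.103, without WT transfected, to -0.006, without MT1. The wild-type pair had the highest rho of the 10 pairs, and the low mean within genotypes came from the 3 mutated pairs, of which 2 include MT2.

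Agreement varied among members. The range of a region's rank over the 5 libraries had a median of 41.8 points (quartiles 27.5 to 56.4); it was under 20 points in 122 regions and over 50 points in 280. Among regions of middle rank, the steadiest was on chromosome 1 from 45188395 to 45191716, ranked 39.8 by MT1, 30.9 by MT2 and 37.6 by MT4, against 36.3 in WT bulk and 29.1 in WT transfected. Next came 2 regions of chromosome 6 (158769188 to 158772062 and 170684263 to 170688141), one of chromosome 1 (116380188 to 116382433) and one of chromosome 17 (28714962 to 28716451), with ranges of 12.5 to 16.1 points. The most variable was on chromosome 2 from 92306521 to 92307937, which scored 553 in MT1, 472 in MT2 and 120 in MT4, against 472 in WT bulk and 783 in WT transfected. MT4 stood alone there, with a peak of 374 bp where the others had 534 to 1417 bp.

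The next most variable regions, on chromosome 16 (46422357 to 46426082) and X (61711914 to 61713292 and 61719272 to 61720058), showed the same pattern, with MT4 ranks of 7.31, 5.51 and 0.359 and every other rank above 65. All of these lie beside centromeres, and MT4 ranked lowest of the 5 libraries in 23 of the 75 common regions there (30.7%, 21.4 to 41.8%), against 136 of 760 elsewhere (17.9%, 15.3 to 20.8%). The 23 include these same regions, which were chosen for their rank range. They also include regions beside the centromere of chromosome 4, a chromosome on which the median MT4 rank was low, as given below. Whether any excess remains apart from both was not tested. The typical MT4 region near a centromere did not stand apart, since its rank lay a median of 0.12 points above the mean of the other 4 libraries. The fifth, on chromosome 6 from 17280504 to 17282706, had another pattern, in which MT1 scored 91.0, MT2 138 and MT4 312, against 320 in WT bulk and 119 in WT transfected.

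Single libraries departed from the others over whole chromosomes. On chromosome 4, the 36 common regions had a median rank of 28.9 in MT4, where MT1 had 54.9 and MT2 59.4, against 45.0 in WT bulk and 62.0 in WT transfected. The MT4 rank lay a median of 21.2 points below the mean of the other 4 libraries (quartiles 31.3 to 1.84 points below). MT4 was lowest in 16 of the 36 (44.4%, 29.5 to 60.4%), against 143 of the 792 common regions outside chromosome 4 and the short arm of chromosome 7 (18.1%, 15.5 to 20.9%). Its median score was 187 on chromosome 4 and 231 over those 792. MT4 had few peaks on this chromosome in its whole list, so this is not separate evidence: it shows that chromosome 4 regions which did reach the MT4 list were ranked low in it.

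A similar case, chosen after the lists had been seen, was the short arm of chromosome 7. Only 7 of the 79 common regions of that chromosome lay there. WT transfected ranked lowest in 6 of the 7 (85.7%, 48.7 to 97.4%), against 142 of the 792 (17.9%, 15.4 to 20.8%). The median rank on the arm was 26.3 in MT1, 20.96 in MT2 and 42.3 in MT4, against 57.6 in WT bulk and 11.1 in WT transfected. WT transfected lay a median of 18.4 points below the mean of the others on the arm, and 2.07 points below over all of chromosome 7. Other small sets departed as much: MT1 lay 23.1 points above on X (7 regions) and 22.7 below on chromosome 14 (5 regions). A departure of this size is thus not particular to the arm. Among the other chromosomes with at least 15 common regions, the largest median departures were those of WT transfected on chromosome 20 (12.2 points below the mean of the others), MT2 on chromosome 2 (11.5 above), WT bulk on chromosome 20 (10.9 above) and MT4 on chromosome 16 (10.8 below). On none of these chromosomes did all 3 mutated medians lie on one side of 0 and both wild-type medians on the other.

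**Figure D5:**
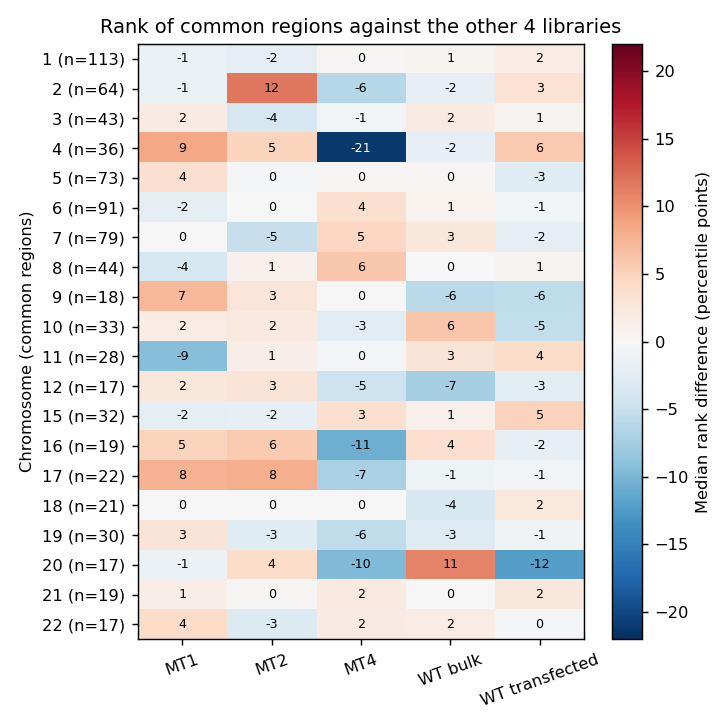
Median difference, in percentile points, between the rank of common regions in a library and their mean rank in the other 4, for chromosomes with at least 15 common regions (n beside each) and for DNMT3A-mutated (left) and wild-type libraries (right). The darkest cell is MT4 on chromosome 4, at 21.2 points below the others.

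Last, the genotypes were compared region by region on the common-region rank. All 3 mutated ranks lay above both wild-type ranks in 74 regions and below both in 74, which is 8.86% of the 835 in each direction. Were the libraries interchangeable, each direction would be 1 of 10 equally likely groupings of a region's ranks. Neither count exceeded that share. The mean rank difference, mutated minus wild-type, had a median of -0.08 points over all common regions (quartiles -10.7 to 11.1). Ranked instead among all 11260 merged regions, with a missing peak placed at the bottom, 93 members (11.1%) were above and 59 (7.07%) below. Over all merged regions the shares were 1.16% and 8.21%. A region can be above only if MT2, the shortest list, holds it, as every member does by the rule. A region can be below because mutated lists lack its peak, which is true of no member. Nothing is therefore read from either comparison of shares. With 3 libraries against 2, no single region can reach an exact p under 0.2, and the regions below are given as values.

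The largest positive difference was on chromosome 19, between 37771225 and 37773270, where MT1 scored 211, MT2 395 and MT4 293, against 198 in WT bulk and 132 in WT transfected. Its common-region ranks were 82.3 in MT1, 97.5 in MT2 and 77.4 in MT4, against 39.8 in WT bulk and 16.05 in WT transfected. It lies inside a run of 3 common regions from 37764114 to 37785063. The next was on chromosome 7, between 123402732 and 123404250, where MT1 scored 200, MT2 119 and MT4 262, against 145 in WT bulk and 120 in WT transfected. The MT2 score there did not exceed the wild-type scores, and the region counts as separated through its rank in each library alone. The others of the top 5 were on chromosome 21 (9707909 to 9709733), chromosome 13 (90755687 to 90757846) and chromosome 20 (26188258 to 26190669), with rank differences of 48.8, 48.7 and 46.3 points. In these too the scores of the genotypes overlapped. MT2 scored 154 against 202 in WT bulk on chromosome 21, and MT1 scored 132 against 134 in WT bulk on chromosome 13. On chromosome 20, MT1 scored 172 against 182 in WT transfected.

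The largest negative difference was on chromosome 7, between 158361631 and 158363472, where MT1 scored 168, MT2 101 and MT4 138, against 267 in WT bulk and 243 in WT transfected. The region on chromosome 2 from 107082327 to 107085077 scored 145 in MT1, 113 in MT2 and 203 in MT4, against 271 in WT bulk and 390 in WT transfected. Its peaks were also narrower in the mutated lines, at 968 bp in MT1, 1361 bp in MT2 and 1337 bp in MT4, against 1897 bp in WT bulk and 2631 bp in WT transfected. The others were on chromosome 2 (176121449 to 176122492 and 32028041 to 32030031) and chromosome 7 (102206110 to 102206745, one of the narrowest common regions), with rank differences from -45.1 to -44.3 points. In each of these 5 every mutated score was below both wild-type scores. The regions were chosen on ranks of these same scores, so this is not separate evidence. Median scores over common regions were also lower in MT1 (155) and MT2 (119) than in WT bulk (217) and WT transfected (186). That of MT4 was 228.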

How the data were processed

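Per the peak names in the deposited files, the authors called peaks with a MACS caller in each library alone, and they deposited a start, an end and a score per peak. The submitters' processing notes name Bowtie 1.1.1, edgeR and hg19 without saying what each tool did. Caller version, threshold and input control: not given in the sources used here. Deposited scores start at 90. The read depth of each library is unknown, since no read counts were used, and no count model was fitted.

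Peaks overlapping by 1 bp or more were merged with pandas 2.3.3 and numpy 2.4.6 in Python 3.11.15; intervals (95% Wilson) came from scipy 1.17.1 and figures from matplotlib 3.10.9. Where a library had several peaks in a region, its best score stood for it, and so did its widest peak where regions were compared one by one; median widths per library are over every peak. Coordinates are hg19, counted from 1. Regions are given by position alone; centromeres, chromosome lengths and named segments were placed approximately, from general knowledge. The library was the replicate, and exact two-sided permutation tests ran over 10 groupings, so that p-values measure only the spread between these libraries. Merging was tested on simulated lists of widely overlapping peaks in well separated regions, where all 200 planted common regions were recovered. Recovery was expected from that setting. Split or barely overlapping peaks were not simulated.

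The members, segments and tests were chosen with earlier results of these data known. Regions named were, by rule, the 5 strongest, widest, narrowest, most and least variable in rank, most different by genotype in each direction, and just inside and outside membership, with the 5 longest runs and the 10 fullest windows of 1 Mb. Alternatives were a stricter score limit (121.64, the median of all peaks), lists of the 1426 best peaks, chromosomes 1 to 22 and X, 50% overlap, gaps up to 500 bp, each library left out, mean scores, Pearson's r, widest peaks and neighbours within 100 kb. Leaving out centromere flanks or chromosomes 4 and 7 was added after seeing the data.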

Additional observations from a re-analysis of the deposited data

How the results depend on the processing

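No paired analysis was possible because the labels pair no mutated line with a wild-type culture. The score limit of 121.64 left 321 common regions and equal list length 423, all of them among the 835; fewer peaks give fewer such regions by construction. Leaving out one library gave 851 to 1731, the most without MT2. Regions with all mutated ranks above both wild-type ranks numbered 31 under that limit and 34 with lists of equal length; those below numbered 27 and 38. With one library left out these counts were 145 to 283 and 146 to 273. Fewer libraries are easier to separate. The share of common regions whose nearest region was common was 17.02% with lists of equal length. Dropping a library gave 14.1 to 18.6%, the highest without MT2 and the next, 17.8%, without MT4. These settings change how many regions are common, and the share for the other regions was not computed in them. Whether common regions clustered more or less there was therefore not tested. The difference in median width ranged from -19.25 bp, without MT2, to 183 bp, without MT1. Mean agreement was 0.776 with Pearson's r of log2 scores and 0.546 to 0.580 without one library. The differences in median score and in agreement kept their sign in all settings run. An overlap of 50%, gaps of 500 bp, chromosomes 1 to 22 and X, and leaving out centromere flanks or chromosomes 4 and 7 changed no direction and no count by over 1.5 times. No exact test could go below p = 0.2 in any setting.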

Other observations

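Regions separated by genotype were unevenly spread over chromosomes, a pattern noticed after the values were seen and not tested. On chromosome 5, 14 of 73 common regions had all mutated ranks above both wild-type ranks (19.2%, 95% Wilson interval 11.8 to 29.7%), against 60 of 762 on other chromosomes (7.87%, 6.17 to 10.0%), and 6 had them below. In the protocadherin segment itself 1 of 10 was above and 3 were below, so the count on chromosome 5 did not come from there. On chromosome 7, 1 of 79 was above and 8 were below.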
